A study of Mus musculus with 36 samples.

Results

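Glycolysis splits glucose into pyruvate, and the genes described here encode the transporters and enzymes of that route together with those that decide whether pyruvate leaves the cell as lactate or enters the mitochondrion. The set of 37 mouse genes was chosen by symbol, and all 37 were found by Ensembl identifier among the 25760 genes of the wild-type table, the 26863 of the *Ctnnb1* table and the 26472 of the Tcf/Lef table. All 37 also passed the filter on low values, a mean of at least 10 normalized counts over a table's libraries. The 36 libraries come from cultured mouse nephron progenitor cells (NPCs), the kidney mesenchyme cells that either renew themselves or form nephrons. The study asked how these cells answer graded amounts of CHIR99021 (CHIR), an inhibitor of the kinase GSK3β that stabilizes β-catenin, and which responses need β-catenin (*Ctnnb1*) or its Tcf/Lef DNA-binding partners.

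Primary NPCs were taken from embryonic mouse kidneys, enriched by magnetic depletion of other cells and grown in nephron progenitor expansion medium, a culture that every group shares. Wild-type NPCs were sampled at 0 µM (no CHIR), 1.25 µM (low CHIR) and 5 µM (high CHIR), with 3 libraries each. NPCs for the knockouts were first kept in low CHIR, and after transfection for longer in the Tcf/Lef experiment than for Cre and Cas9 removal. For Cre removal, NPCs homozygous for a conditional *Ctnnb1* allele (B-catenin_c_c) received Cre mRNA, and the controls of the same genotype did not. For Cas9 removal, NPCs that carry Cas9-eGFP received guides to *Ctnnb1*, and the controls a guide to GFP. Each of these 4 conditions had 2 libraries in low CHIR and 2 in high CHIR. In the Tcf/Lef experiment, Cas9-eGFP NPCs received guides to *Tcf7*, *Tcf7l1*, *Tcf7l2* and *Lef1* (the quadruple knockout, QKO) or to GFP, with 3 libraries per group apart from QKO in low CHIR, which had 2. Knockout was by transfection and sorting for a co-transfected mCherry reporter, so a sorted population may hold unedited cells. Nothing in the labels says whether replicates came from separate litters, so p-values measure the spread between these libraries.

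Depth was 13089780 to 76071568 reads on genes per library. Nephron progenitor markers (summed over 7 genes) went from 27684 to 32972 normalized counts in no CHIR down to 306 to 405 in high CHIR of the wild type, and induced nephron markers (6 genes) went from 1428 to 2949.7 up to 24388 to 33698. In bulk samples a smaller share of a cell type and less RNA per cell cannot be told apart. Wild-type high CHIR replicate 3 stood apart from its group, with 712 ureteric marker counts (mostly *Gata3*) against 5262 and 5427, so the calls in wild-type high CHIR are given with and without it. Blood markers reached 2839 counts in Tcf/Lef control high CHIR replicate 1 and were at most 102 in the other libraries of that table. *Ctnnb1* was 1039.6 to 1652 normalized counts in Cas9 removal against 2521 to 3397 in the controls. After Cre in high CHIR it was 2254 and 2583 against 2423 and 2207 in controls, which overlapped. In low CHIR it was 3085 and 2451 after Cre against 3880.1 and 3097, without overlap but close. *Tcf7* was 66.2 to 179.7 counts in QKO against 141 to 535 in the controls, and *Lef1* in high CHIR 255 to 513 against 1144 to 2743. In low CHIR, *Tcf7l1* was 827 and 1286 in QKO against 1736 to 2225 in controls, without overlap. In high CHIR, *Tcf7l1* (539 to 736 against 486 to 612) and *Tcf7l2* (999 to 1616 against 1263 to 2233) overlapped their controls, and a guide's small deletions need not lower a transcript.

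As background, cells control glycolytic flux at a few steps. Hexokinase traps glucose, phosphofructokinase-1 commits it, and the PFKFB enzymes make and remove the fructose 2,6-bisphosphate that stimulates phosphofructokinase-1. Lactate leaves through monocarboxylate transporters, whereas the pyruvate dehydrogenase complex feeds pyruvate to the tricarboxylic acid cycle unless a pyruvate dehydrogenase kinase (PDK) switches it off. Nephron progenitors are known for active glycolysis, and the balance between glycolysis and mitochondrial oxidation has been linked to their choice between renewal and differentiation.

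Levels are compared between genes as normalized counts per kb of exon, the length being the union of all annotated exons of a gene. That union can be longer than the transcript the cells make, so levels between genes are approximate. In wild-type low CHIR the main enzymes of the lower pathway were the most abundant. *Ldha*, a subunit of lactate dehydrogenase, had 4381 to 10706 normalized counts per kb over the 3 libraries. *Eno1* (enolase) had 5054 to 10213, and *Gapdh*, glyceraldehyde-3-phosphate dehydrogenase, had 5418 to 7408. Some families had a dominant form. *Aldoa* lay at 3953 to 9456 per kb against 25.4 to 66.3 for the other aldolase gene *Aldoc*, and *Eno1* lay far above *Eno2* (7.64 to 28.5) and *Eno3* (219 to 472), without overlap. The phosphofructokinase-1 subunits *Pfkl* (516 to 1333) and *Pfkm* (423 to 533) overlapped each other, and both lay above *Pfkp* (16.8 to 36.7). Both subunits of lactate dehydrogenase were high, *Ldhb* lying at 4272 to 5351 per kb and overlapping *Ldha*. In high CHIR, *Ldhb* lay at 6338 to 7433 and *Ldha* at 3115 to 7098, again overlapping. The glucose transporter *Slc2a1* lay at 395 to 659 per kb and *Slc2a3* at 3.45 to 9.96.

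On this scale the hexokinase pair overlapped in no CHIR and was apart in low and high CHIR. The exon unions were 8532 bases for *Hk1* and 5969 for *Hk2*. In no CHIR, *Hk1* (79.8 to 129.8 per kb) and *Hk2* (106 to 157 per kb) overlapped, whereas in low CHIR *Hk2* lay at 268 to 336 against 73.9 to 93.0 for *Hk1*, and in high CHIR at 415 to 648 against 137 to 157. *Pdk1* and *Pdk4* were apart in no CHIR and overlapped in low CHIR. In no CHIR, *Pdk4* (50.4 to 64.3 per kb) lay above *Pdk1* (3.39 to 6.89), and in low CHIR *Pdk1* (15.2 to 81.5) and *Pdk4* (5.61 to 23.9) overlapped. *Pdk3* was highest of the 4 in each wild-type dose, at 322 to 357 per kb in low CHIR.

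**Figure D1:**
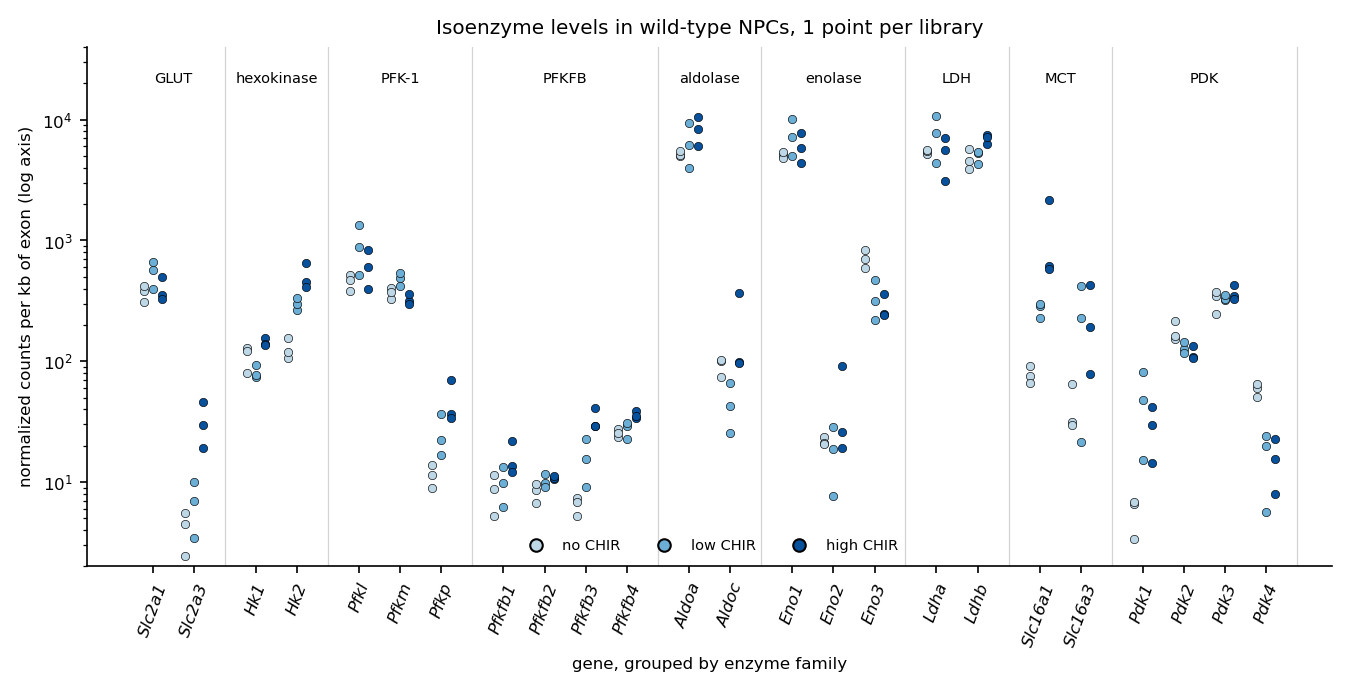
Normalized counts per kb of exon (log axis) of the genes with sister isoforms in the 9 wild-type libraries, grouped by enzyme family and shaded by CHIR dose, with each point a library. *Aldoa*, *Eno1*, *Ldha* and *Ldhb* form the top of the plot in every library (lowest value 3115, for *Ldha* in high CHIR), and *Slc2a3* and *Pfkp* are the low members of their families.

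The abundant enzymes differed widely between replicates in some groups, mainly in low CHIR of the wild type and of the Cre cells, and little in others. Summed, *Gpi1*, *Aldoa*, *Tpi1*, *Gapdh*, *Pgk1*, *Pgam1*, *Eno1*, *Pkm* and *Ldha* (a group of 9 put together after their values were seen) held 0.585%, 1.11% and 0.778% of all normalized counts in wild-type low CHIR. In no CHIR the same genes held 0.570%, 0.524% and 0.585%, and in high CHIR 0.639%, 0.800% and 0.940%. The low CHIR libraries overlapped those in high CHIR and reached down to the top of no CHIR. The median SD of log2 values over these 9 genes was 0.58 in wild-type low CHIR against 0.21 over all genes tested, and 0.07 against 0.28 in no CHIR. *Pgk1*, phosphoglycerate kinase, had 7005, 19109 and 11482 normalized counts in low CHIR and 6558, 6472 and 6665 in no CHIR. *Slc16a3*, the lactate exporter MCT4, had 113, 2225 and 1214 counts in low CHIR, a 19.7-fold range within a group. Such a spread leaves wide intervals. For high against low CHIR in the wild type, the 95% interval of the log2 fold change ran from -0.84 to 0.55 for *Pgk1* and from -1.27 to 0.23 for *Ldha*.

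The Cre libraries showed the same feature. In Cre control low CHIR, replicate 1 held 1.18% of its counts in the 9 abundant enzymes and replicate 2 held 0.597%, and after Cre removal in low CHIR the values were 0.983% and 0.530%. Replicate 1 was higher for 32 of the 37 genes in the control and for 31 of 37 after removal, with median log2 differences of 0.59 and 0.60, while the median over all genes was 0.05 and 0.03. *Slc16a3* had 1512 counts in the first and 101 in the second Cre control library in low CHIR. In the Tcf/Lef table the libraries were closer, with median SDs of 0.16 to 0.25 for the 9 enzymes in every group.

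**Figure D2:**
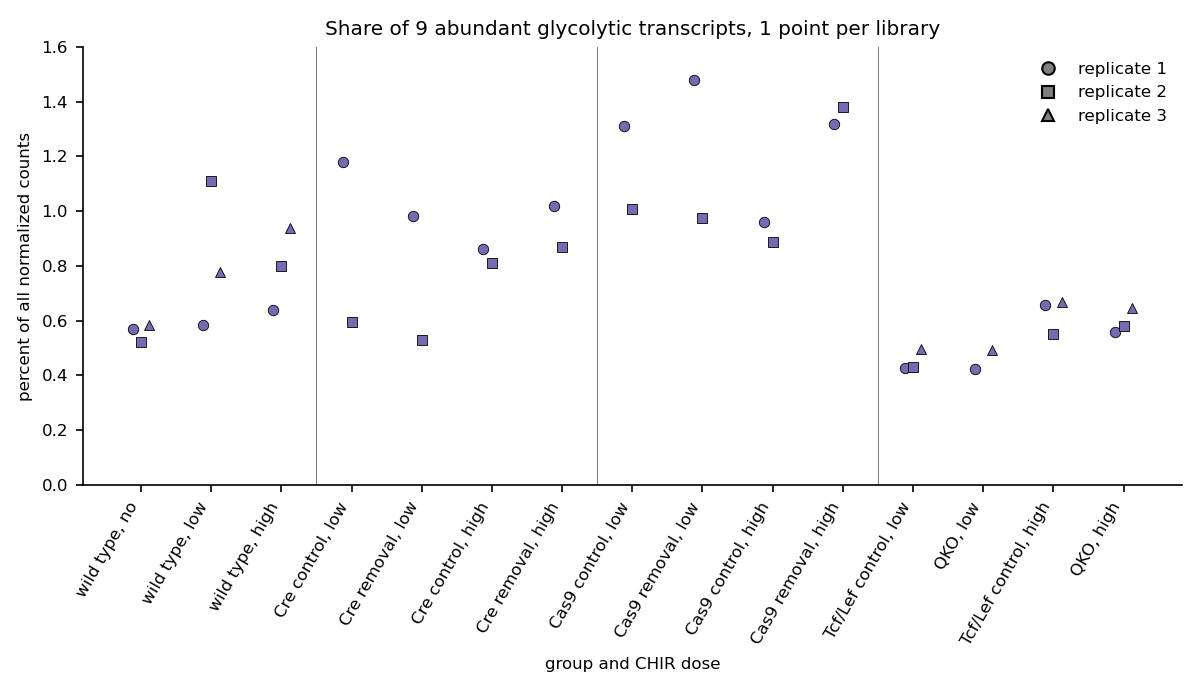
Percent of all normalized counts held by the 9 abundant enzymes in each of the 36 libraries, by group, with the replicate number as the symbol. Wide gaps between replicates are seen in low CHIR, in the wild type (0.585% to 1.11%), the Cre cells (0.597% and 1.18% in controls) and Cas9 removal (up to 1.48%). Shares are comparable within a table only, and vertical lines part the experiments.

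The first question is how the genes respond to the CHIR dose in intact cells. A gene was called when its adjusted p was below 0.05 (limma, Benjamini-Hochberg over all genes tested), and fold changes are on the log2(normalized count + 1) scale, which understates changes of low genes. Groups whose values did not overlap are described as apart. That is no test, and the share of all genes apart was not counted for any pair of groups. In wild-type NPCs, 7 of the 37 genes were called between high and low CHIR, 5 higher and 2 lower, against a background of 10.6% of all genes tested. The transcripts that rose were *Slc2a3* (glucose uptake), *Hk1* and *Hk2* (its first phosphorylation), *Aldoc* (an aldolase) and *Slc16a1* (lactate transport), and those that fell were *Pcx* (pyruvate carboxylase) and *Pfkm* (phosphofructokinase-1). The median log2 fold change of the 37 genes was 0.18, and that of all genes tested was 0.01.

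*Slc16a1* encodes MCT1, a carrier of lactate and pyruvate across the plasma membrane, and lies at chr3:104638668-104658462 on the plus strand (GRCm38). It had 404, 335 and 293 normalized counts in no CHIR, 1279, 1312 and 1018 in low CHIR, and 2700.2, 2577 and 9517 in high CHIR. The doses did not overlap, and high CHIR replicate 3 was far above its group. From low to high CHIR it rose by 1.76 ± 0.42 (SE) on the log2 scale (adjusted p = 0.0233, limma), and without high CHIR replicate 3 by 1.14 (adjusted p = 0.00208). *Slc2a3*, the high-affinity glucose transporter GLUT3, had 24.97, 72.2 and 50.3 counts in low CHIR and 215, 139.6 and 331 in high CHIR, again without overlap. It rose by 2.23 ± 0.47 (adjusted p = 0.0135), and by 1.92 without replicate 3 (adjusted p = 0.0355).

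*Hk2*, the inducible hexokinase, had 1600.5, 1793 and 2004 counts in low CHIR and 2713, 2475 and 3870.5 in high CHIR. It rose by 0.73 ± 0.20 (adjusted p = 0.0449), and without replicate 3 the change was 0.53 with an adjusted p of 0.0842. *Hk1*, the widely expressed hexokinase, had 631, 794 and 659 counts in low CHIR and 1339, 1179 and 1173 in high CHIR. It rose by 0.83 ± 0.19 (adjusted p = 0.0212), and by 0.86 without replicate 3 (adjusted p = 0.0256). *Aldoc* had 82.8, 216 and 139 counts in low CHIR and 319, 318 and 1209 in high CHIR. Its rise of 1.87 ± 0.50 (adjusted p = 0.0406) leaned on replicate 3, without which it was 1.23 with an adjusted p of 0.0501.

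*Pcx*, pyruvate carboxylase, which turns pyruvate into oxaloacetate, had 583, 622 and 701 counts in low CHIR and 225, 211 and 109 in high CHIR. Every high CHIR library was below every low CHIR library. The change was -1.86 ± 0.27 (adjusted p = 0.00164) and -1.54 without replicate 3 (adjusted p = 0.000469). *Pfkm*, the muscle subunit of phosphofructokinase-1, had 1625, 1781 and 1414 counts in low CHIR and 1049, 995 and 1212 in high CHIR. Its log2 fold change was -0.56 (adjusted p = 0.0329), and -0.65 without replicate 3 (adjusted p = 0.0160).

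These calls rested on few libraries. With each of the 6 libraries left out in turn, *Pcx* was called 6 times, *Slc2a3* 5 times, *Slc16a1*, *Hk1* and *Aldoc* 3 times each, and *Hk2* and *Pfkm* once each. Without low CHIR replicate 1 only *Pcx* was called. Markers of other cell types moved with the dose as well. The ureteric and distal nephron gene *Gata3* was 37.1 to 61.8 counts in low CHIR and 623 to 4283 in high CHIR. The endothelial list (6 genes) went from 61.1 to 180.4 up to 656 to 1415. Within it *Flt1* went from 4.75 to 11.8 up to 39.1 to 1336, while *Cdh5* (at most 6.72 in high CHIR) and *Emcn* (at most 11.2) stayed low. The rest of that sum came from *Pecam1*, *Kdr* and *Tek*. The blood list, mostly *Lyz2*, went from 721 to 864 down to 233 to 338, and the stroma list from 4158 to 6768 down to 1123 to 3371. Their part in these results was not tested.

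Withdrawal of CHIR addressed what the low dose sustains. Between no and low CHIR, 5 of the 37 genes were called, 4 lower and 1 higher in no CHIR, against a background of 5.04%. *Pdk1*, a kinase that inactivates pyruvate dehydrogenase, had 118, 634 and 369 counts in low CHIR and 50.7, 26.3 and 53.6 in no CHIR. The groups did not overlap although the low CHIR libraries spread over a 5.36-fold range, and the change was -2.83 ± 0.59 (adjusted p = 0.0284). *Slc16a1* changed by -1.81 ± 0.42 (adjusted p = 0.0384) and *Hk2* by -1.25 ± 0.20 (adjusted p = 0.0104). *Hk2* had 633, 717 and 936 counts in no CHIR.

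*Gapdh* had 22392, 30617 and 22807 counts in low CHIR and 16605, 15717 and 16272 in no CHIR, a change of -0.63 ± 0.13 (adjusted p = 0.0311). *Eno3*, the muscle enolase, had 381, 549.7 and 820.4 counts in low CHIR and 1218, 1038 and 1442 in no CHIR. It was the gene called higher in no CHIR, by 1.13 ± 0.27 (adjusted p = 0.0442). *Pdk4*, the PDK that fasting and fatty acids induce in many tissues, had 19.7, 70.3 and 83.8 counts in low CHIR and 209, 177 and 226 in no CHIR. Those groups were also apart, but the change of 2.03 ± 0.53 was not called (adjusted p = 0.0564). Without low CHIR replicate 2 no gene of the set was called, and *Slc16a1* was called in none of the 6 fits that left out a library. *Pdk1* was called in 2 of these 6, with changes from -3.51 without low CHIR replicate 1 to -2.30 without low CHIR replicate 2 (adjusted p = 0.110). Of the 37 genes, 28 were fitted lower in no CHIR, with a median of -0.37 against 0.01 over all genes.

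Across the whole range, high against no CHIR, 17 of the 37 genes were called, 12 higher and 5 lower, against a background of 24.6%. *Slc16a1* rose by 3.56 ± 0.42 (adjusted p = 0.000269), *Slc2a3* by 2.88 ± 0.47 (adjusted p = 0.00187), *Pdk1* by 2.26 ± 0.59 (adjusted p = 0.0193; 112, 232 and 323 counts in high CHIR) and *Hk2* by 1.98 ± 0.20 (adjusted p = 0.000116). *Slc2a3* had 40.0, 17.6 and 32.4 counts in no CHIR. *Pfkfb3*, the PFKFB enzyme with the strongest bias towards making fructose 2,6-bisphosphate, had 55.8, 39.5 and 51.4 counts in no CHIR, 68.3, 117 and 172 in low CHIR and 221, 222 and 312 in high CHIR. No 2 doses overlapped, and the rise from no to high CHIR was 2.33 ± 0.34 (adjusted p = 0.000897).

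The other genes higher in high than in no CHIR were *Pfkp* (1.97, adjusted p = 0.00261), *Pkm* (pyruvate kinase, 1.37, adjusted p = 0.00864), *Pdha1* (a catalytic subunit of pyruvate dehydrogenase, 0.92, adjusted p = 0.00249) and *Gapdh* (0.80, adjusted p = 0.00203). Smaller rises were seen for *Dlat* (another subunit of that complex, 0.70, adjusted p = 0.0162), *Gpi1* (0.63, adjusted p = 0.0455) and *Ldhb* (0.58, adjusted p = 0.0224). *Pdk4* had 79.5, 54.4 and 28.0 counts in high CHIR, a log2 fold change of -2.01 (adjusted p = 0.0205). *Pcx* fell by 1.52 (adjusted p = 0.00257), from 596, 439 and 475 counts in no CHIR. *Eno3* had 424, 420.1 and 626 counts in high CHIR and fell by 1.34 (adjusted p = 0.00600). *Pdk2* had 683, 480.1 and 514 counts in no CHIR and 421, 346 and 336 in high CHIR, and fell by 0.59 (adjusted p = 0.0394). *Mpc2*, a subunit of the mitochondrial pyruvate carrier, fell by 0.55 (adjusted p = 0.0133). Without high CHIR replicate 3 the change of *Slc16a1* was 2.95 (adjusted p = 6.86e-06), of *Slc2a3* 2.57 (adjusted p = 0.00521), of *Pfkfb3* 2.17 (adjusted p = 0.00270), of *Hk2* 1.78 (adjusted p = 9.71e-05) and of *Pkm* 1.08 (adjusted p = 0.0180). The number called was then 13, *Gpi1*, *Pdk1*, *Pdk2* and *Pdk4* no longer being called (adjusted p = 0.109, 0.0518, 0.0776 and 0.0535). *Gpi1* was called in none of the 6 fits that left out a library.

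In 4 genes, *Hk2*, *Slc16a1*, *Pfkfb3* and *Pdha1*, all 3 doses stood in rising order without overlap, which held for 2.31% of all genes tested. *Pdha1* had 2243, 1541 and 1843 counts in no CHIR, 2271, 2783 and 2387 in low CHIR and 3589.8, 3131 and 3813 in high CHIR, so its lower doses nearly touched. None of the 37 stood in falling order, against 3.49% of all genes. *Pcx* was not ordered by dose, as its no CHIR values overlapped those in low CHIR.

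**Figure D3:**
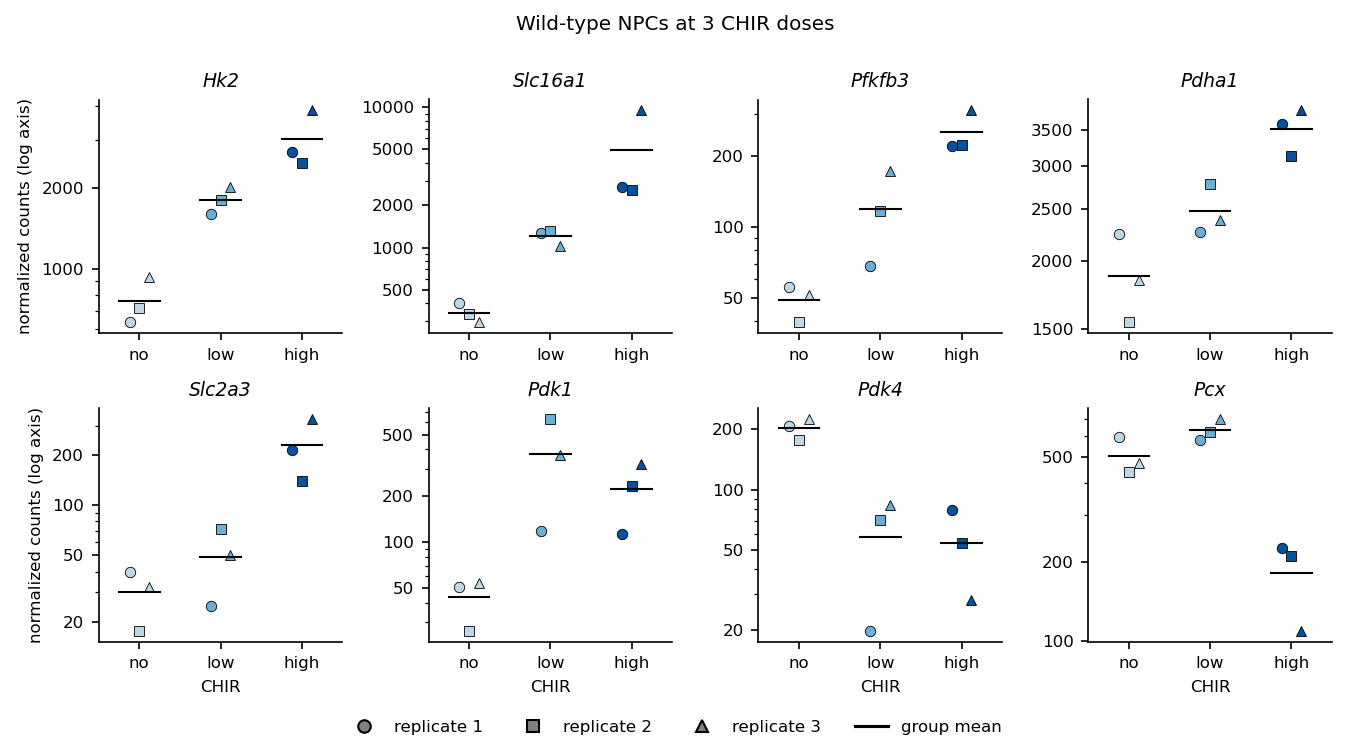
Normalized counts (log axes, 1 panel per gene) in wild-type NPCs at no, low and high CHIR, with symbols for replicates and a line for the group mean. *Hk2*, *Slc16a1*, *Pfkfb3* and *Pdha1* step up with each dose, *Slc2a3* is higher and *Pcx* lower in high CHIR, and *Pdk1* and *Pdk4* part no CHIR from the other doses.

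The promoters of *Slc16a1*, *Hk2* and *Pdk4* are shown because these genes carried the responses to dose and to knockout in opposite directions. The bases lie before the start of transcription, from RefSeq on GRCm38.p6, written 5′ to 3′ on the strand of the gene, and capitals mark ACGTG on either strand, the core of the hypoxia response element. The first is 250 bases at chr3:104638414-104638663 (plus strand), the second 250 bases at chr6:82774455-82774704 and the third 219 bases at chr6:5496310-5496528 (both minus strand).
*Slc16a1*: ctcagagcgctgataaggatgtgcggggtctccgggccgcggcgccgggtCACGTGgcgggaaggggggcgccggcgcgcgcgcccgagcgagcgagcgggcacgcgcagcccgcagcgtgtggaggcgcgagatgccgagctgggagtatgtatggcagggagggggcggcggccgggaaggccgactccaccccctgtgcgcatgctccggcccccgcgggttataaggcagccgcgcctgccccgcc
*Hk2*: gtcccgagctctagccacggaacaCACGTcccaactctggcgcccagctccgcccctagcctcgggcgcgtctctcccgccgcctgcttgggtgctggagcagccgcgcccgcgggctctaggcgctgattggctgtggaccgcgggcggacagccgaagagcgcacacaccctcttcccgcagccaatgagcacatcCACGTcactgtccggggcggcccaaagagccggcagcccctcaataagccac
*Pdk4*: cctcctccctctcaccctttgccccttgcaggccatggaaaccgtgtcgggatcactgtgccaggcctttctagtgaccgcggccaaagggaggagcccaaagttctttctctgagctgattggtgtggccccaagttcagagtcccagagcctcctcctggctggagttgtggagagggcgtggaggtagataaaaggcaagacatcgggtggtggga
The *Slc16a1* stretch holds 1 CACGTG, the E-box that MYC-type factors read and that contains ACGTG on both strands. The *Hk2* stretch holds ACGTG 2 times and the *Pdk4* stretch holds none.

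Over the RefSeq promoter windows of 300 bases, 36 of the 37 genes had at least 1 window and 57 windows in all. ACGTG was in 23 of these 57 windows, or 40.4%, against 19.6% of all 32851 windows, and CACGTG, which overlaps it, in 7 of 57 or 12.3% against 7.15%. The genes with CACGTG were *Ldha*, *Pcx*, *Pdk2*, *Pfkfb2*, *Pfkfb3*, *Pfkm* and *Slc16a1*, which include genes that rose and genes that fell with dose. The Tcf/Lef motif CTTTGAT was in none of the 57 windows against 3.73% of all, and CTTTGTT in none against 5.85%, both strands searched. These are descriptions of letters in a window, and say nothing of binding elsewhere.

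The 3 control sets give further tests of high against low CHIR in transfected cells. In Cre controls, 3 of 37 genes were called (2 higher, 1 lower; background 8.06%), in Cas9 controls 3 of 37 (1 higher, 2 lower; background 7.51%) and in Tcf/Lef controls 11 of 37 (8 higher, 3 lower; background 15.6%). The shares called in the Cre and Cas9 controls were thus close to their backgrounds. *Slc16a1* was the 1 gene of the set called higher in all 4 intact comparisons, the wild type included. Over the 14952 genes tested in all 3 tables, 2.45% were called in the same direction in all 4, so 1 of 37 is near the background.

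*Slc16a1* had 1009 and 706 counts in Cre control low CHIR and 2307 and 2009 in high CHIR, and rose by 1.35 ± 0.20 (adjusted p = 0.000729). In Cas9 controls it went from 789 and 758 to 2119.9 and 2414, a rise of 1.55 ± 0.20 (adjusted p = 0.000284). In Tcf/Lef controls it went from 737, 993 and 732 to 2537, 2876 and 1794, a rise of 1.54 ± 0.20 (adjusted p = 0.000340). In each set all high CHIR libraries were above all low CHIR libraries, and no left-out library ended these 3 calls.

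*Pfkfb3* had 143 and 98.9 counts in Cre control low CHIR and 445 and 274 in high CHIR, a rise of 1.54 ± 0.33 (adjusted p = 0.0105). In Tcf/Lef controls it rose by 1.81 ± 0.27 (adjusted p = 0.000773), from 72.2, 97.7 and 169 counts to 374, 319 and 438. In Cas9 controls, with 260.3 and 213 counts in low CHIR and 431 and 335 in high CHIR, the groups were apart but the gene was not called. The Cre call was lost without high CHIR replicate 1 (adjusted p = 0.123) or low CHIR replicate 2 (adjusted p = 0.0619), and the Tcf/Lef call held in all 6 such fits.

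*Pdk4* moved the other way. It had 175 and 98.0 counts in Cre control low CHIR and 35.0 and 41.5 in high CHIR, and the change was -1.76 (adjusted p = 0.0472). In Tcf/Lef controls it had 42.8, 105 and 251 in low CHIR and 17.3, 31.4 and 24.5 in high CHIR, and fell by 2.09 (adjusted p = 0.0228). In Cas9 controls, 125 and 219.7 in low CHIR against 45.7 and 60.3 in high CHIR gave -1.64, which was not called. All 3 sets were apart between doses, yet the Cre call ended in 3 of 4 fits with a library left out and the Tcf/Lef call in 3 of 6. The Tcf/Lef change ran from -2.72 without low CHIR replicate 1 to -1.46 without low CHIR replicate 3. In the wild type, by contrast, low CHIR (19.7 to 83.8) and high CHIR (28.0 to 79.5) overlapped.

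*Pcx* fell in Cas9 controls by 1.25 (adjusted p = 0.00735), from 493 and 545 counts to 208 and 228, and in Tcf/Lef controls by 0.94 (adjusted p = 0.0414), from 489, 428 and 591 to 292, 157 and 385. In Cre controls it had 383 and 535 counts in low CHIR and 278 and 347 in high CHIR and was not called. With a library left out, *Pcx* was called in 2 of 4 fits in Cas9 controls and in 1 of 6 in Tcf/Lef controls, where the change ranged from -1.22 to -0.57. *Hk1* also fell in Cas9 controls, by 0.82 (adjusted p = 0.0287), from 1038 and 986 to 584 and 558 counts. That direction is opposite to the wild type, where it rose, and the difference between the experiments was not tested. The Cas9 call of *Hk1* was lost in all 4 fits that left out a library. Exons of *Hk1* overlap those of its antisense transcript *Hk1os*, which had 2.61 to 54.6 counts in any library, and use of strand in counting is not given in the sources used here.

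Other genes were called in the Tcf/Lef controls, where the background was also higher and groups held 3 libraries. *Pkm* rose by 1.00 ± 0.17 (adjusted p = 0.00178), from 11769, 10870.0 and 15891 counts to 26123, 20595 and 30328. *Slc16a3* rose by 1.67 ± 0.49 (adjusted p = 0.0388), from 84.4, 80.9 and 37.2 to 316, 229 and 118. *Hk2* rose by 0.89 (adjusted p = 0.0160), *Eno1* by 0.84 (adjusted p = 0.00973), *Gapdh* by 0.78 (adjusted p = 0.0253) and *Pgk1* by 0.59 (adjusted p = 0.00679). *Pfkm* fell by 0.61 (adjusted p = 0.0264), from 1485, 1246 and 1519 counts to 972, 722 and 1121. The 9 abundant enzymes held 0.427% to 0.498% of counts in low CHIR and 0.550% to 0.668% in high CHIR, without overlap. *Pkm*, *Eno1*, *Pgk1*, *Pfkfb3* and *Slc16a1* stayed called whichever library was left out, and *Slc16a3* only without high CHIR replicate 3. Blood markers were high in high CHIR replicate 1, and without it 7 of the 37 genes were called.

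With the replicate number as a block, which pairs the Tcf/Lef libraries, *Pdha1* (0.44, adjusted p = 0.0210) and *Pfkfb1* (1.03, adjusted p = 0.0327) were called too.

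**Figure D4:**
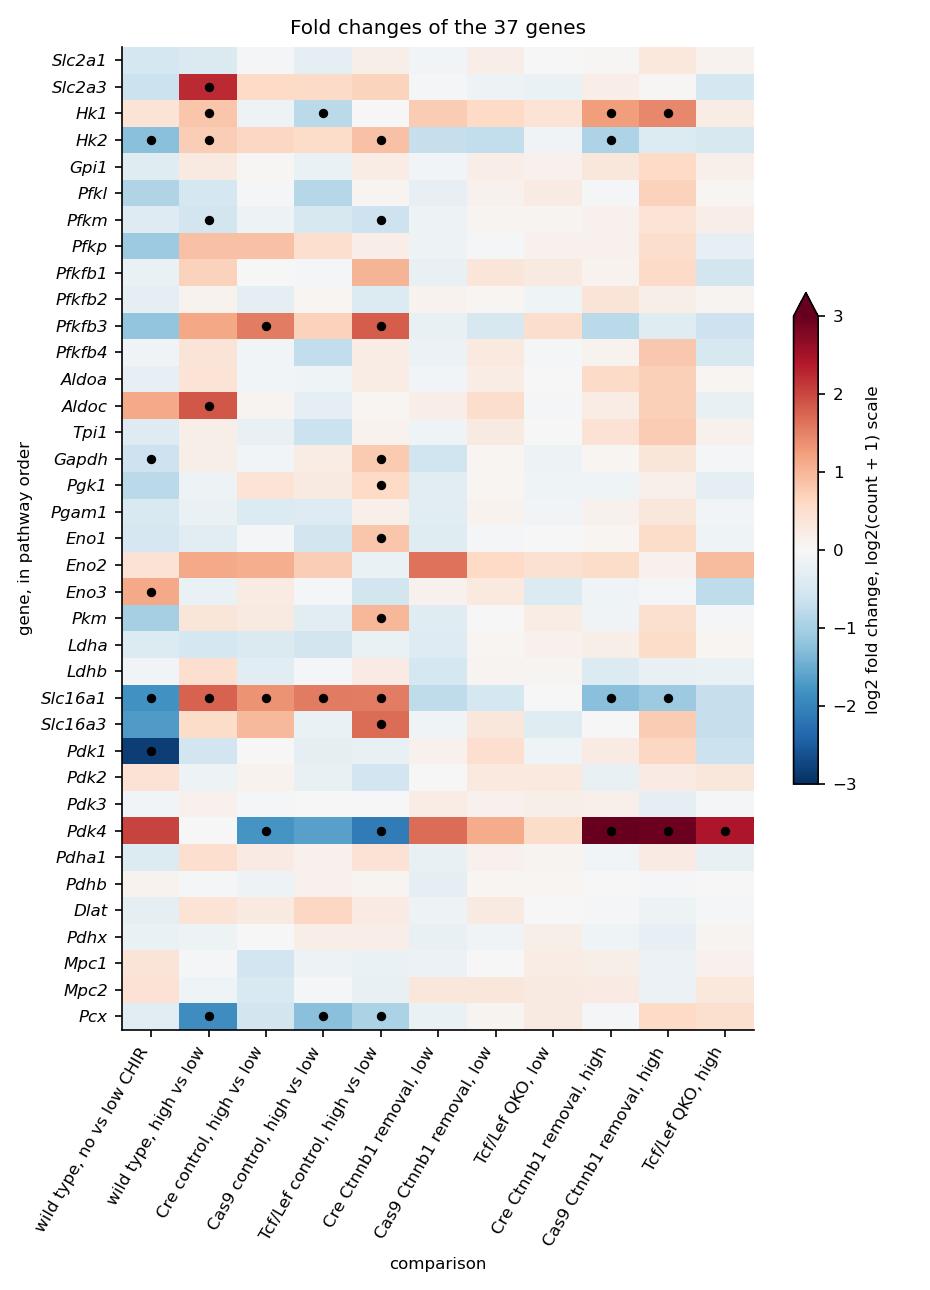
Log2 fold changes of the 37 genes (rows, in pathway order) in 11 comparisons (columns), on the log2(count + 1) scale, red higher and blue lower, with a dot where the adjusted p was below 0.05 (limma). Colour is capped at 3 either way, which *Pdk4* passes after Cre removal in high CHIR (4.26). In these fits, which have no replicate block, *Slc16a1* has dots in all 4 high against low CHIR columns. The columns of removal in low CHIR have none.

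Removal of β-catenin in high CHIR was compared with the controls of each method. After Cre removal, 4 of 37 were called (2 higher, 2 lower; background 8.65%), and after Cas9 removal 3 of 37 (2 higher, 1 lower; background 5.09%). The shares called, 10.8% and 8.11%, were not far from these backgrounds. *Pdk4*, *Hk1* and *Slc16a1* were called in both, in the same direction, a pattern held by 3.73% of the 16780 genes tested. These comparisons share their high CHIR controls with the dose comparisons above, so the values are set side by side and not as separate evidence.

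*Pdk4* (chr6:5483351-5496309, minus strand, GRCm38) had 35.0 and 41.5 counts in Cre control high CHIR and 1163 and 481 after removal. Both libraries after removal lay far above both controls. It rose by 4.26 ± 0.50 (adjusted p = 0.000111), by 3.62 without removal replicate 1 and by 4.90 without removal replicate 2. With Cas9 it went from 45.7 and 60.3 to 323 and 519 counts, a rise of 2.94 ± 0.50 (adjusted p = 0.00387), which was 2.60 with an adjusted p of 0.0740 without removal replicate 2.

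*Hk1* (chr10:62268855-62379908, minus strand, GRCm38) had 512 and 574 counts in Cre control high CHIR and 1441 and 1151 after removal, a rise of 1.25 ± 0.21 (adjusted p = 0.00183). With Cas9 it went from 584 and 558 to 1267 and 1859, a rise of 1.43 ± 0.21 (adjusted p = 0.00134). Neither pair of groups overlapped, and both calls held in all fits that left out a library. *Hk2* (chr6:82725025-82774454, minus strand, GRCm38) went the opposite way after Cre, from 1575 and 1526 to 826 and 806 counts, a fall of 0.93 (adjusted p = 0.00498). With Cas9, *Hk2* had 1862 and 1672 counts in controls and 1365 and 1307 after removal, groups apart but not called.

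*Slc16a1* fell by 1.25 after Cre (adjusted p = 0.00131), to 970.3 and 843 counts, and by 1.09 after Cas9 (adjusted p = 0.00642), to 1191 and 953. After Cre removal in high CHIR the level lay within that of the low CHIR controls (706 to 1009), and after Cas9 removal above it (758 and 789). The Cas9 call was lost without control replicate 2 (adjusted p = 0.0952) or removal replicate 2 (adjusted p = 0.113). *Pcx*, which had fallen with dose in Cas9 controls, had 271 and 394 counts after Cas9 removal in high CHIR and was not called in either removal.

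In low CHIR no gene of the set was called after Cre removal (background 0.328%) or Cas9 removal (background 0.0536%) by limma without a replicate block. At an unadjusted p below 0.05, 6 of the 37 genes passed after Cre and 4 after Cas9. Of all 16780 genes tested, 1795 passed after Cre and 576 after Cas9. For Cre, edgeR on recovered reads also called 0, and DESeq2 called *Hk2* and *Pdk4*. With the replicate number as a block, limma called *Hk2*, *Slc16a1* and *Pdk4* for Cre. The values in low CHIR of the genes called in high CHIR were apart but not called. With 2 libraries per group, groups can lie apart without a change, and the share of all genes that did so was not counted. *Pdk4* had 690.3 and 255 counts after Cre removal in low CHIR against 175 and 98.0 in controls, and 368 and 352 after Cas9 removal against 125 and 219.7. The log2 fold changes were 1.67 (95% interval 0.59 to 2.75) and 1.11 (0.03 to 2.19). *Hk1* had 1158 and 891 against 555 and 649 for Cre, and 1659 and 1389.5 against 1038 and 986 for Cas9. *Slc16a1* had 545 and 453 counts after Cre removal and 581 and 492 after Cas9, below its controls in both.

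Whether removal acted differently at the 2 doses was tested by the interaction of removal and CHIR, and none of the 37 genes was called for Cre (background 0.995%) or Cas9 (background 0.518%) by limma. The unadjusted p was below 0.05 for 1 gene (*Pdk4*) with Cre and for 2 (*Pdk4* and *Hk1*) with Cas9. Of all 16780 genes tested, 1428 with Cre and 1159 with Cas9 had such a p. For *Pdk4* the interaction was 2.59 (95% interval 1.07 to 4.11, adjusted p = 0.144) with Cre and 1.83 (0.30 to 3.35, adjusted p = 0.578) with Cas9. In this fit, which has no replicate block, a call in high but not in low CHIR was not shown to be a difference between doses. With the replicate number as a block, the *Pdk4* interaction with Cre was called by limma. Same-numbered Cre libraries deviated together (correlations 0.334 to 0.518), but 2 libraries per group were not taken as pairing.

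The nephron progenitor markers were 12356 to 16761 counts after removal in high CHIR against 2679 to 4299.7 in controls, and the induced nephron markers 3113 to 7417 against 18748 to 24534. The endothelial list was 572 to 1065 against 65.4 to 163, of which *Emcn* made up nearly all (523 to 1041 after removal), while *Cdh5* was at most 3.64 and *Pecam1* at most 7.29 after removal. Their part in the changes of *Pdk4*, *Hk1* and *Slc16a1* was not tested.

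**Figure D5:**
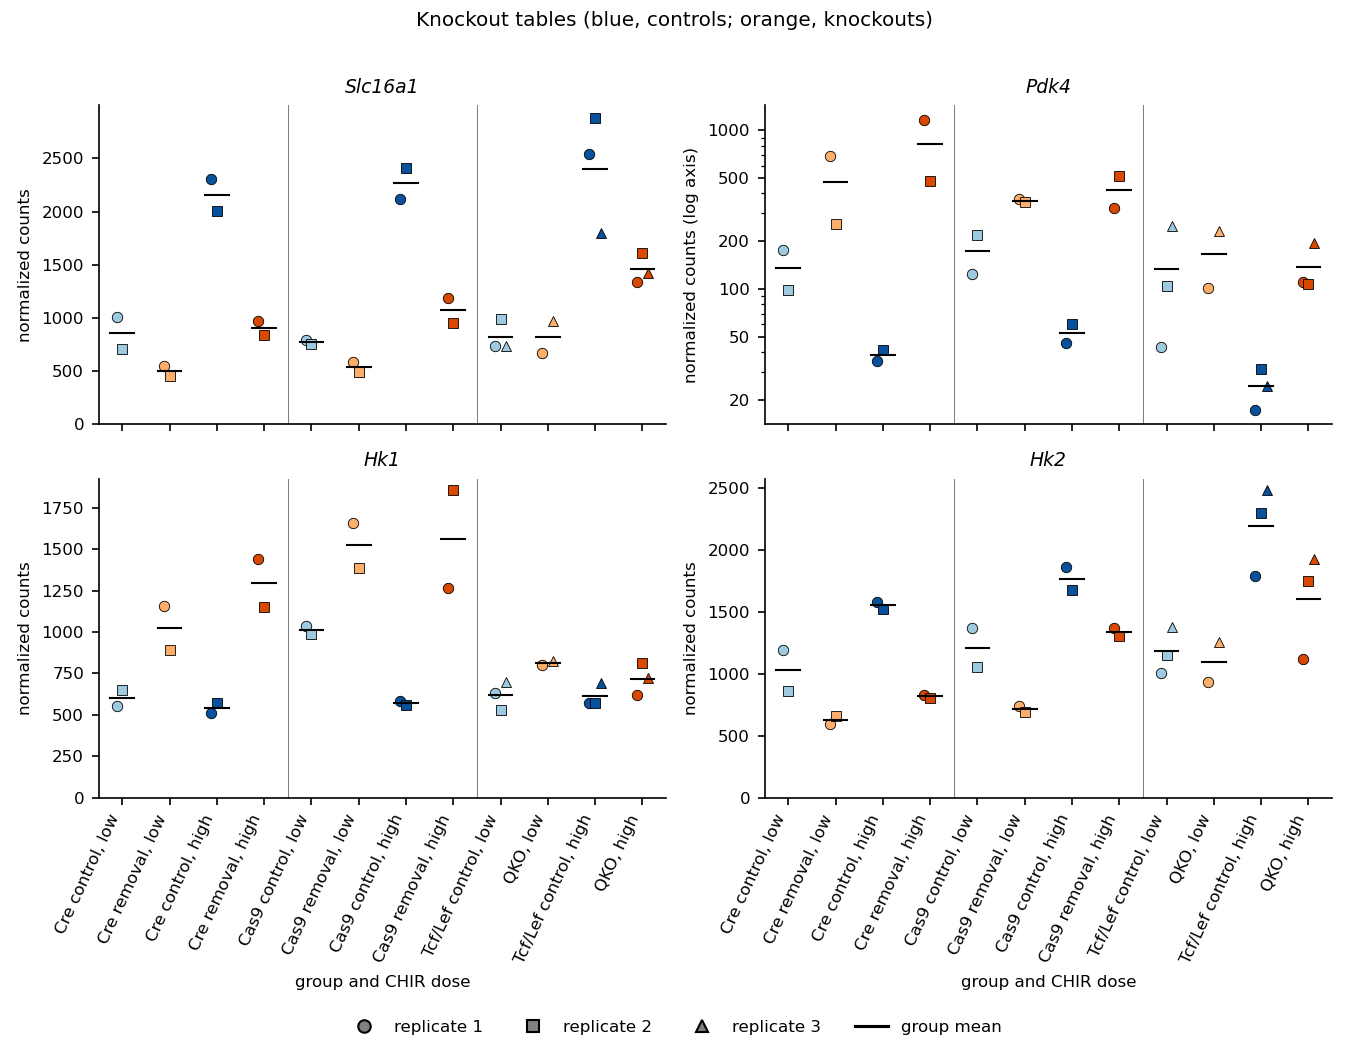
Normalized counts of *Slc16a1*, *Pdk4* (log axis), *Hk1* and *Hk2* in the 27 libraries of the knockout experiments, with controls in blue, knockouts in orange, symbols for replicates and lines for group means. In high CHIR, *Pdk4* and *Hk1* lie above and *Slc16a1* and *Hk2* below their controls after Cre and Cas9 removal, and for the Tcf/Lef QKO *Pdk4* and *Slc16a1* lie apart from controls while the hexokinases overlap.

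Loss of the Tcf/Lef factors was measured against the GFP guide at both doses. In high CHIR, 1 of the 37 genes was called in QKO against control by limma without the replicate block (background 2.56%). *Pdk4* had 17.3, 31.4 and 24.5 counts in controls and 110.4, 108 and 194 in QKO, without overlap, and rose by 2.43 ± 0.55 (adjusted p = 0.0392). In this fit the call was lost whichever library was left out, with adjusted p of 0.0689 to 0.134. Libraries were not left out of the fit with the block. *Slc16a1* had 1342, 1614 and 1424 counts in QKO against 2537, 2876 and 1794, apart but not called (-0.69, adjusted p = 0.112).

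With the replicate block the count was 4, since *Slc16a1* (-0.69, adjusted p = 0.0248), *Hk2* (-0.48, adjusted p = 0.0273) and *Eno3* (-0.76, adjusted p = 0.0446) joined *Pdk4* (adjusted p = 0.00220). The share of all genes called in that fit is not given here, so this count has no background beside it. Without the block and without control replicate 3, *Slc16a1* was called and *Pdk4* was not. Without control replicate 1, which held the blood markers, the *Pdk4* change was 2.22 (adjusted p = 0.112). Progenitor markers were 4178 to 5726 in QKO against 1090.2 to 2508 in controls, and their part in these results was not tested.

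In low CHIR, QKO and control differed for none of the 37 genes by limma, edgeR or DESeq2, against a background of 0.00630%. The unadjusted p was below 0.05 for 1 gene by limma, *Hk1* (802 and 826 counts against 634, 532 and 699), for 0 by edgeR and for 1 by DESeq2. By limma it was below 0.05 for 706 of all 15878 genes tested. *Slc16a1* had 674 and 973 counts in QKO and 737, 993 and 732 in controls, with a 95% interval of -0.50 to 0.49 for the log2 fold change. The interaction of QKO and CHIR was called for none (background 0.126%), with an unadjusted p below 0.05 for 3 genes by limma. Of all 15878 genes tested, 809 had such a p for the interaction. *Hk1* in high CHIR, called after both β-catenin removals, had 618, 811 and 724 counts in QKO and 570.3, 574 and 692 in controls, with an interval of -0.11 to 0.56.

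Over the 15 comparisons by limma without a replicate block, 23 of the 37 genes were called at least once and 14 were not. Those not called were *Slc2a1* (the main glucose transporter), *Pfkl*, *Pfkfb1*, *Pfkfb2*, *Pfkfb4*, *Aldoa*, *Tpi1*, *Pgam1*, *Eno2*, *Ldha*, *Pdk3*, *Pdhb*, *Pdhx* and *Mpc1*. Of these, DESeq2 called *Pfkl* between no and low CHIR and *Mpc1* between high and no CHIR, and the blocked fit of Tcf/Lef controls called *Pfkfb1*. Other fits without a basis in pairing, or of the compared libraries alone, also called *Aldoa*, *Pfkfb4*, *Mpc1*, *Pfkl* or *Tpi1*. Within this group the pyruvate dehydrogenase subunits had the smallest swings, *Pdhb* fitting between -0.26 and 0.12 and *Pdhx* between -0.25 and 0.21 over the 12 comparisons of 2 groups. *Slc2a1* fitted between -0.52 and 0.31. *Pfkl* ranged from -0.90 to 0.70 and *Eno2* from -0.21 to 1.64 without passing this test.

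By role, the steps that the called genes belong to differed in direction. Of the lactate dehydrogenase and transporter genes, *Slc16a1* was higher with more CHIR in each dose call. *Slc16a3* was called higher in Tcf/Lef controls alone, and its low and high CHIR values overlapped in the wild type and in Cre and Cas9 controls. *Ldhb* was called higher in wild-type high against no CHIR alone, and *Ldha* was not called in any comparison by limma. Of the 4 PDK genes, *Pdk1* was higher in low and in high CHIR than in no CHIR, *Pdk2* and *Pdk4* were lower in high CHIR, and *Pdk3* was not called by limma. The pyruvate dehydrogenase subunits *Pdha1* and *Dlat* were higher in high than in no CHIR. For the hexokinases, *Hk2* was higher with more CHIR in each call and lower after Cre removal, whereas *Hk1* was called in either direction.

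Other genes of the pathway were counted from whole lists. Among 41 further glycolysis and pyruvate genes (36 tested in the wild type), 3 were called up and 5 down between high and low CHIR, against a background of 10.6%. The 3 with the largest change were *Slc16a7* (MCT2, -3.06), *Slc2a4* (GLUT4, -2.19) and *Emb* (embigin, a partner of monocarboxylate transporters, 1.35). *Me2* (mitochondrial malic enzyme) and *Pgm2* (phosphoglucomutase), singled out after their values were seen, were called lower in all 4 intact comparisons. Of all genes tested in all of them, 2.45% were called in the same direction in all 4. *Me2* changed by -1.21 (adjusted p = 0.000243) in the wild type and by -0.90, -1.16 and -0.96 in Cre, Cas9 and Tcf/Lef controls. *Gpd1*, cytosolic glycerol-3-phosphate dehydrogenase, was higher after Cre (1.78, adjusted p = 0.0110) and Cas9 removal (2.41, adjusted p = 0.00289) and in QKO (1.68, adjusted p = 0.0268), all in high CHIR. In that list, 4 genes were higher and 2 lower of 33 tested after Cre removal in high CHIR (background 8.65%), led by the glucose transporters *Slc2a12* (3.31, adjusted p = 0.00239) and *Slc2a10* (2.02, adjusted p = 0.000895). After Cas9 removal 2 were called (background 5.09%), *Gpd1* and *Slc2a10* (2.07, adjusted p = 0.00146).

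Of 16 tricarboxylic acid cycle genes, *Suclg2* (a succinyl-CoA synthetase subunit) was called lower with more CHIR in all 4 intact comparisons (-1.40 in the wild type, adjusted p = 0.000225; background 2.45% for all 4 in the same direction). *Suclg2* was the 1 cycle gene called in the wild type between those doses (background 10.6%). It was higher after Cre removal (0.66) and in QKO (0.65) in high CHIR. Of 21 hypoxia response genes outside glycolysis, 1 was higher and 2 were lower between high and low CHIR in the wild type (background 10.6%), and 3 and 3 of 19 in the Tcf/Lef controls (background 15.6%). *Bnip3l*, a mitophagy receptor singled out after its values were seen, was called lower in all 4 intact comparisons (-0.89 in the wild type, adjusted p = 0.0157; background 2.45%). None of the 7 pentose phosphate genes was called between high and low CHIR in any of the 4 sets by limma (backgrounds 7.51% to 15.6%).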

How the data were processed

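The authors aligned reads with STAR to a genome that included mouse GRCm38, counted them per gene with featureCounts and divided each library by a DESeq2 size factor, so the deposited values are a signal: normalized counts per gene, in 1 table for each of the 3 experiments. The sources used here do not say whether counting used strand. The deposited comparison tables hold the authors' fold changes and p-values and were not used, and their 50 per-library columns were left aside.

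Genes with a mean of at least 10 were tested with limma 3.58.1 (R 4.3.3) on log2(normalized count + 1), with all libraries of a table in 1 fit of group means and Benjamini-Hochberg adjustment over all genes tested. Calls were set at an adjusted p below 0.05, and no test crosses tables, which were normalized separately. Errors after ± are standard errors. The script was tested on simulated data. Alternatives were a pseudocount of 0.5, no filter, TMM scaling, edgeR 4.0.16 and DESeq2 1.42.0 on whole reads recovered from the values, only the libraries compared, an added fold threshold of 0.5 (log2), the replicate number as a block, and each library left out in turn. In 3 libraries whole reads could not be recovered, and count tests that need them were not run.

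In the Tcf/Lef table same-numbered libraries deviated together (correlations 0.214 to 0.637), so the number was taken to pair them and blocked values are given where they change a call. In the wild type the correlations (-0.0156 to 0.272) were mostly lower but overlapped these, and the number was not taken to pair the libraries.

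The 37 genes and the other lists were chosen with earlier results of these data known. Every called gene of the 37 is named, the 4 largest changes each way with each library's value, and at most 3 called genes of every other list by size of change, unless said otherwise. Exons of 13 of the 37 genes overlap another gene and 5 have a pseudogene of their name, which counting could mix. No interval from counting depth is given, and precision rests on the spread between libraries.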

Additional observations from a re-analysis of the deposited data

Results flagged for a closer look

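*Hk1* was called in opposite directions between high and low CHIR in a pair of intact cell sets. Its log2 fold change was 0.83 in wild-type NPCs, where every high CHIR library was above every low CHIR library, and -0.82 in Cas9 controls, where every high CHIR library was below. With a library left out, the wild-type call held in 3 of 6 fits and the Cas9 call in 0 of 4. In Cre and Tcf/Lef controls *Hk1* was not called, and its low and high CHIR values overlapped. The difference between the wild-type and Cas9 sets was not tested.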

How the results depend on the processing

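The precision is limited by 2 or 3 libraries per group and by the spread of the abundant enzymes in low CHIR. Over 54 calls of the 37 genes, 324 of 340 values under alternatives that kept every library stayed called, 16 did not and 0 changed sign. With a library left out, 193 of 298 stayed called and 0 changed sign. Numbers called changed as follows, and the shares of all genes called under these alternatives are not given here. With only the libraries compared in the fit, 3 genes were called between high and low CHIR in the wild type, 1 in Cre controls, 6 in Cas9 controls and 6 after Cas9 removal in high CHIR. Between no and low CHIR, edgeR called 3 and DESeq2 12. After Cre removal in low CHIR, DESeq2 called 2. The cause of these differences was not tested. With the replicate block, the number was 6 in Cre controls, 7 in Cas9 controls, 3 after Cre removal in low CHIR (*Hk2*, *Slc16a1* and *Pdk4*), 6 after Cas9 removal in high CHIR, 1 for the Cre interaction (*Pdk4*, 2.59, adjusted p = 0.00727, limma) and 4 for QKO in high CHIR, and the pairing rests on the libraries' own deviations. In the *Ctnnb1* table same-numbered libraries also deviated together (correlations 0.116 to 0.518), but with 2 libraries per group this was not taken as pairing. In the wild type the correlations were -0.0156 to 0.272, and the number was not taken as pairing either. Leaving out 1 library gave 1 to 6 for the wild type (1 without low CHIR replicate 1), 0 to 3 for no against low CHIR (0 without low CHIR replicate 2), 12 to 15 for high against no CHIR, 1 to 4 in Cre controls, 1 to 2 in Cas9 controls, 0 to 2 and 4 to 5 after Cre removal in low and high CHIR, 0 and 1 to 3 after Cas9 removal, 6 to 10 in Tcf/Lef controls, 0 and 0 to 1 for QKO, and 0 for the interactions. edgeR and DESeq2 were not run where whole reads could not be recovered.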
